A study of Mus musculus with 6 samples.

Results

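Gata4, Gata5, Gata6, Nkx2-5, Tbx20, Mef2c, Srf, Myocd, Hand1 and Hand2 encode the core transcription factors of heart development. They were taken by name as 10 of the 46983 genes listed in an RNA-seq data set of whole embryonic mouse hearts. Earlier results of these data were known when they were chosen. All 10 were among the 17473 genes with enough counts to be tested. The hearts came from mid-gestation E13.5 embryos of strain C57BL/6 x DBA/2, with 1 heart per library. In 3 mutant hearts (replicates 1, 5 and 10, genotype TnnT2Cre;Wt1flox) the Wilms' tumor suppressor gene Wt1 was removed by a Cre recombinase under the promoter of cardiac troponin T, a gene of heart muscle cells. The 3 control hearts (replicates 2, 3 and 5) carry the label wild type. The study's methods describe them as embryos with both Wt1 alleles floxed and no Cre, so the floxed alleles are shared by both groups and Cre is present in the mutants only. According to the study this driver also acts in part of the epicardium, and a whole heart holds many cells in which it never acts. The comparison asks how the transcript levels of these factors stood in hearts that lack WT1 in the troponin T lineage.

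These proteins bind DNA in the same stretches of chromatin and act together. GATA factors read short GATA motifs with zinc fingers, NKX2-5 is a homeodomain protein, TBX20 a T-box protein, MEF2C and SRF are MADS-box proteins, and HAND1 and HAND2 are basic helix-loop-helix proteins that bind E-boxes as dimers. Myocardin, the product of Myocd, does not bind DNA itself but joins SRF on CArG boxes and activates muscle genes there. In the embryonic heart the group specifies cardiac progenitors, shapes the chambers and keeps genes of the contractile apparatus active.

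Total counts per heart lay between 44244665 (control replicate 5) and 56373393 (control replicate 3). Wt1, the targeted gene, had levels of 20.9, 17.3 and 10.2 FPKM (counts scaled to gene length and to the depth of the library) in control replicates 2, 3 and 5, and of 9.29, 17.2 and 17.4 FPKM in mutant replicates 1, 5 and 10. The groups overlapped (log2 fold change -0.10, SE 0.31, edgeR adjusted p = 0.990), so the gene's total did not separate the labels. That total also counts Wt1 transcripts of cells without Cre. Control replicate 5 stood apart from the other hearts. Its counts declined with gene length relative to the mean of all hearts (Spearman's rho -0.553 across 11999 genes, which are not independent replicates; -0.0601 to 0.460 in the others). Its summed level of 7 cardiomyocyte markers was 8592 CPM (counts scaled by the heart's total) against 11340 to 13560 CPM in the other 5 hearts, and its 5 erythroid markers reached 32281 CPM, which mutant replicate 10 matched with 35535 CPM while the other 4 hearts had 10807 to 13815 CPM. Control replicate 3 had 758 CPM of 5 liver genes against at most 21.5 CPM elsewhere. The summed markers of macrophages did not overlap between the groups, at 57.2 to 66.4 CPM in the controls and 83.1 to 95.6 CPM in the mutants. Among single genes, 11.2% of those tested did not overlap. Of the 6 macrophage markers, 5 were higher in the mutants at an unadjusted p under 0.05 in edgeR, beside 5.73% of all genes tested. The sums of the other lists overlapped, for example 278 to 514 CPM of 9 epicardial markers in the controls and 324 to 573 CPM in the mutants, and the cardiomyocyte list itself at 8592 to 13560 CPM and 11340 to 12873 CPM. Within the epicardial list 4 of 9 markers had an unadjusted p under 0.05 in edgeR, in both directions, beside 5.73% of all genes tested. Tcf21 was lower in the mutants (log2 fold change -1.10, edgeR adjusted p = 0.113, DESeq2 adjusted p = 1.66e-07), and Krt8 (1.13, edgeR adjusted p = 0.273, DESeq2 adjusted p = 0.000253), Upk1b (0.96) and Msln (0.61) were higher. Results that rest on control replicate 5 are therefore also given without it.

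The levels of the 10 factors differed widely. Gata4 (mean of the 6 hearts 147 FPKM), Nkx2-5 (141 FPKM) and Tbx20 (101 FPKM) were the most abundant per length. Mef2c (49.2 FPKM), Gata6 (49.0 FPKM) and Srf (44.8 FPKM) formed a middle group, followed by Hand2 (35.3 FPKM), Hand1 (27.7 FPKM) and Myocd (20.8 FPKM). Gata5 was the least abundant at 7.67 FPKM. Some neighbours in this order did not differ beyond the spread between hearts. Gata4 was above Nkx2-5 in 4 of 6 hearts, Mef2c above Gata6 in 3 of 6 and Gata6 above Srf in 5 of 6. The ranges of Hand2 and Hand1 overlapped, as did those of Hand1 and Myocd, although the first of each pair was the higher in all 6 hearts. The ranges of the other 4 neighbouring pairs did not overlap. By mean CPM, Tbx20 lay at the 98.3rd percentile of the genes tested and Gata5 at the 58.0th.

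**Figure D1:**
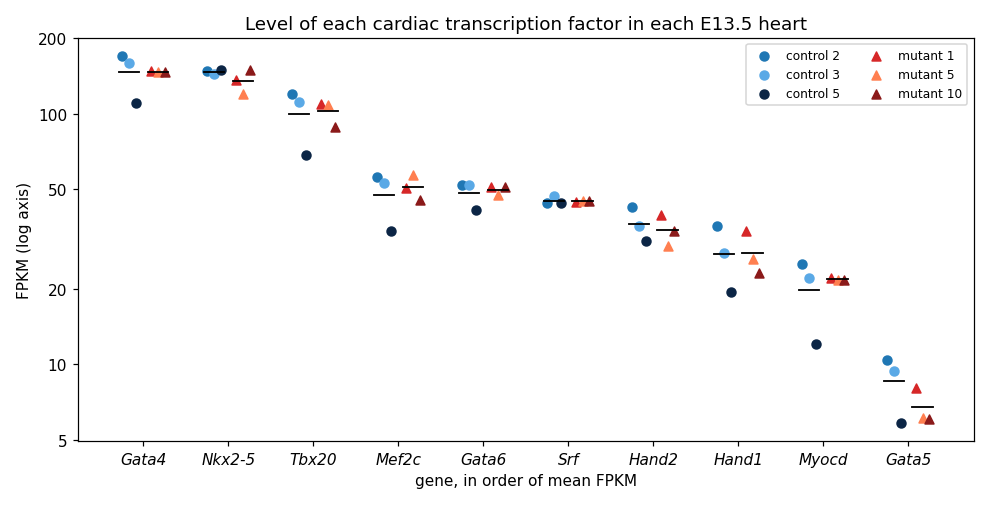
Level of each factor in each heart in FPKM on a log axis, with genes ordered by the mean over the 6 hearts; circles are control hearts, triangles mutant hearts and short bars the group means (n = 3 each). The order runs from Gata4 at 147 FPKM to Gata5 at 7.67 FPKM, and the darkest circle, control replicate 5, is the lowest heart for most genes.

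The mutant and control hearts overlapped for every one of the 10 factors, and none passed the test. Of all genes tested, 0% had an edgeR adjusted p under 0.05, 5.73% an unadjusted p under 0.05 and 11.2% groups that did not overlap. Among the 10 factors the counts were 0, 0 and 0. The log2 fold change (mutant over control) was positive for 7 factors and negative for 3, with a median of 0.04, beside 49.8% positive and a median of 0.00 among all genes. DESeq2 and the limma fits also called none of the 10, where DESeq2 called 0.493% of the genes it tested. The 95% intervals set how large a difference these 6 hearts leave room for. They were narrowest for Srf, from -0.19 to 0.24, and widest for Myocd, from -0.35 to 0.71.

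Without control replicate 5 the direction turned for 6 of the factors. The log2 fold change was then negative for 9 of the 10 and positive for Srf alone, with a median of -0.10, where 50.7% of all genes were positive. The groups no longer overlapped for Gata4, Gata5 and Tbx20, all lower in the mutant hearts, in a comparison in which 30.2% of all genes did not overlap and 14.5% were separated with the mutants lower. In edgeR Gata5 alone had an unadjusted p under 0.05, beside 12.2% of all genes, and no factor had an edgeR adjusted p under 0.05 (0.247% of genes). Control replicate 2 was the highest heart for 6 of the factors, and leaving it out instead gave 8 positive and 2 negative values with a median of 0.14.

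**Figure D2:**
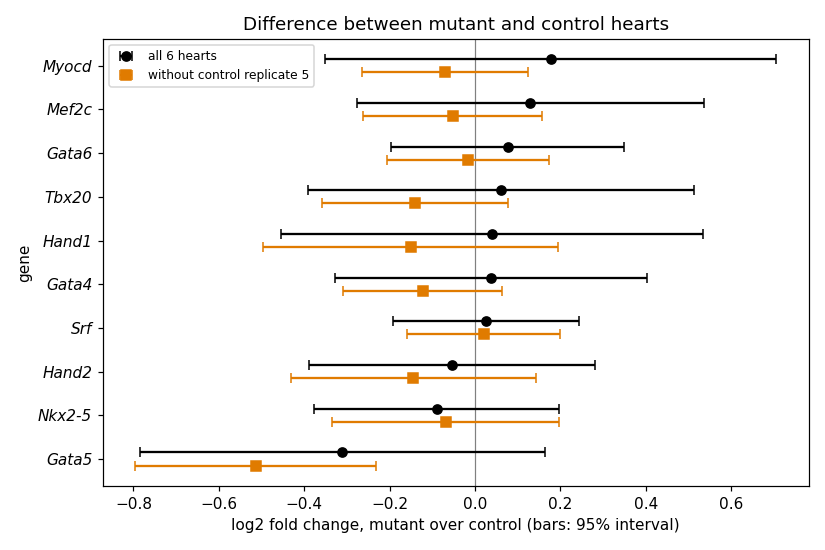
Log2 fold change of each factor, mutant over control, from edgeR, with its 95% interval, for all 6 hearts (black circles) and without control replicate 5 (orange squares). All 10 intervals from the 6 hearts include 0; without that heart the estimates for 9 factors are below 0, and the interval of Gata5, from -0.80 to -0.23, lies below it.

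Gata4 (ENSMUSG00000021944, chr14:63198922-63271692 of GRCm38, minus strand), the main GATA factor of heart muscle and a partner of most other factors here, had levels of 169, 160 and 110.02 FPKM in control replicates 2, 3 and 5 and of 148, 146 and 147 FPKM in mutant replicates 1, 5 and 10. The mutant hearts lay within 1 FPKM (SD 0.817, n = 3) of their mean of 147 FPKM, below control replicates 2 and 3 and above control replicate 5. In CPM they were less close, at 269, 270 and 287 CPM, and mutant replicate 10 came near control replicate 3 at 290 CPM. The means were nearly equal, since the controls averaged 146 ± 31.8 FPKM (SD, n = 3), and the log2 fold change was 0.04 (SE 0.16, 95% interval -0.33 to 0.40, edgeR adjusted p = 0.990). Without control replicate 5 it was -0.12 (SE 0.08, edgeR adjusted p = 0.585).

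Gata6 (ENSMUSG00000005836), a close relative of Gata4 that is expressed in heart muscle, endocardium and vascular smooth muscle, varied little. It stood at 51.8, 51.7 and 41.2 FPKM in the control hearts and at 51.2, 47.3 and 50.8 FPKM in the mutant hearts. In FPKM the mutant range lay inside that of the controls. In CPM mutant replicate 10 was the highest heart at 171 CPM, where the controls had 163, 162 and 132 CPM. The log2 fold change was 0.08 (SE 0.12, 95% interval -0.20 to 0.35, edgeR adjusted p = 0.985). It was -0.02 without control replicate 5.

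Gata5 (ENSMUSG00000015627, chr2:180325133-180334699, minus strand), which is known from the endocardium, had the largest log2 fold change in size of the 10 factors. Its levels were 10.4, 9.41 and 5.87 FPKM in control replicates 2, 3 and 5 and 8.09, 6.14 and 6.09 FPKM in mutant replicates 1, 5 and 10. All 3 mutant hearts lay below control replicates 2 and 3 and above control replicate 5. The estimate was -0.31 (SE 0.21, 95% interval -0.79 to 0.16, edgeR adjusted p = 0.968). Without control replicate 5 it was -0.51 (SE 0.12, 95% interval -0.80 to -0.23), and the call then depended on the tool. The edgeR adjusted p was 0.172 and that of DESeq2 0.0169, where DESeq2 called 1.69% of genes. The 7 markers of endothelium and endocardium summed to 1046, 862 and 675 CPM in control replicates 2, 3 and 5. In mutant replicates 1, 5 and 10 they summed to 909, 1177 and 1089 CPM, so the groups overlapped. Over all hearts all 7 log2 fold changes were positive, beside 49.8% of all genes tested. Of the 7, 1 had an unadjusted p under 0.05 in edgeR, beside 5.73% of all genes. None of them was at or under 3 counts. Of the exon bases of Gata5, 7.87% are shared with Gata5os on the opposite strand. The strand setting of the counting is not given in the sources used here, so reads on these bases could belong to either gene. In RNA of a whole heart, fewer cells of a type and less RNA per cell cannot be told apart, for Gata5 as for the other factors.

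Within each heart the 3 GATA genes kept similar shares of their summed FPKM. Gata4 made up 71.8% ± 1.59 (SD, n = 3) in the control and 72.2% ± 0.943 in the mutant hearts, and Gata6 24.0% ± 1.98 and 24.5% ± 0.679. The share of Gata5 was 4.51%, 4.26% and 3.74% in the controls and 3.91%, 3.08% and 2.99% in the mutants. Mutant replicates 5 and 10 thus lay below every control, while mutant replicate 1 lay within the control range. The log2 ratio of Gata5 to Gata4 differed by -0.34 (two-sided exact permutation test, p = 0.2, adjusted over 6 ratios 0.84), and that of Gata4 to Gata6 by -0.02 (exact p = 1). With 3 hearts against 3, this test cannot give a p below 0.1.

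Nkx2-5 (ENSMUSG00000015579, chr17:26838664-26845009, minus strand), the homeobox gene that marks cardiac progenitors and stays on in heart muscle, had the closest control hearts of the 10 factors in FPKM, and after Srf in CPM. Its control levels were 148, 144 and 149 FPKM, a spread of 1.93% of the mean. The mutant hearts had 136, 120 and 149 FPKM, a spread of 11.1%. Mutant replicates 1 and 5 lay below all controls and mutant replicate 10 above them, by less than 1 FPKM. For the groups this gave a log2 fold change of -0.09 (SE 0.12, 95% interval -0.38 to 0.20, edgeR adjusted p = 0.985). Nkx2-5 was the one factor that was higher in control replicate 5 than on average elsewhere, where it stood 0.11 log2 units above the mean of the other 5 hearts on the CPM scale.

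Tbx20 (ENSMUSG00000031965, chr9:24718138-24774303, minus strand), a T-box factor that chamber muscle and endocardium need for growth and valve formation, was among the factors most reduced in control replicate 5. The control hearts had 119, 112 and 68.6 FPKM and the mutant hearts 109, 108 and 88.7 FPKM. Control replicates 2 and 3 were above all mutants and control replicate 5 was below all of them. Over all hearts the log2 fold change was 0.06 (SE 0.20, 95% interval -0.39 to 0.51, edgeR adjusted p = 0.990), and -0.14 (SE 0.10) without control replicate 5.

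Mef2c (ENSMUSG00000005583, chr13:83504034-83667080, plus strand), the MEF2 gene required in the anterior heart field and its ventricular derivatives, had 55.7, 52.7 and 34.1 FPKM in the controls and 50.7, 56.8 and 45.4 FPKM in the mutants. The highest heart was mutant replicate 5 and the lowest control replicate 5. Its log2 fold change was 0.13 (SE 0.18, 95% interval -0.28 to 0.54, edgeR adjusted p = 0.985), and -0.05 without control replicate 5. Relative to Nkx2-5 in the same heart, the log2 ratio of Mef2c differed by 0.25 and that of Tbx20 by 0.19 between the groups (exact permutation test, p = 0.5 and 0.6), and without control replicate 5 the Mef2c ratio came down to 0.02 and the Tbx20 ratio turned to -0.07. The Mef2c difference was 0.09 without mutant replicate 5.

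Hand1 (ENSMUSG00000037335, chr11:57828705-57832818, minus strand), which is expressed mainly on the left ventricular side, had 35.5, 27.9 and 19.4 FPKM in the controls and 34.2, 26.3 and 23.1 FPKM in the mutants. The hearts of both groups were spread over the same range, so that the SD was 29.2% of the mean in the controls and 20.5% in the mutants. Between the groups the log2 fold change was 0.04 (SE 0.21, 95% interval -0.45 to 0.53, edgeR adjusted p = 0.993), and -0.15 without control replicate 5 or -0.11 without mutant replicate 1.

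Hand2 (ENSMUSG00000038193, chr8:57320983-57324633, plus strand), its relative on the right ventricular side and in the endocardium, had 42.4, 35.5 and 31.1 FPKM in the controls and 39.5, 29.6 and 33.9 FPKM in the mutants. Its log2 fold change was -0.05 (SE 0.15, 95% interval -0.39 to 0.28, edgeR adjusted p = 0.990), and it turned to 0.07 without control replicate 2 and to 0.04 without mutant replicate 5. Hand1 made up 42.6% ± 3.78 (SD, n = 3) of the summed FPKM of both HAND genes in the control hearts and 44.7% ± 3.62 in the mutant hearts, a log2 difference in their ratio of 0.12 (exact permutation test, p = 0.5). Of the exon bases of Hand2, 19.6% are shared with the opposite-strand gene Hand2os1, the most of any factor. Besides Gata5 and Hand2, only Gata6 shares exon bases with another gene (1.43%), and the remaining 7 share none.

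Hand2 is shown with the 250 bases before its transcription start (RefSeq, GRCm38.p6, chr8:57320733-57320982, plus strand) because they hold the letters that GATA factors read. Capitals mark the matches to GATAA or TTATC, at -214 to -210 and -172 to -168 from the start.
Hand2: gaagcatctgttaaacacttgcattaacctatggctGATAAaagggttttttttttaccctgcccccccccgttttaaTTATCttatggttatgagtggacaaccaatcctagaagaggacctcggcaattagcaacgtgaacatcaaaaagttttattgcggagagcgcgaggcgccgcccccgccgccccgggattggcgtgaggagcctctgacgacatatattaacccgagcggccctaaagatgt
GATAA or TTATC was present in 22.6% of 32851 promoter windows of the same length, and 2 of the 8 windows used for 6 of the 10 factors held it. Gata4, Hand1 and Myocd had no promoter entry, and Gata6 was left out of the search. The window of Gata5, at chr2:180334680-180334929 on the minus strand, is shown because Gata5 had the largest difference and its letters contrast with those of Hand2.
Gata5: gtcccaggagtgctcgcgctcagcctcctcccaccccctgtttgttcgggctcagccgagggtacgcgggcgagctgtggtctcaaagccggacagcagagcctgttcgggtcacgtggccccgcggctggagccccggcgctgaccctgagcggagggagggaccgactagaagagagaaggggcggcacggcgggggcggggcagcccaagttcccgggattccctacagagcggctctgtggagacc
It has a GC content of 70% against 49.2% for Hand2, and holds neither GATAA nor TTATC, which says only that these letters are not in this window. A match is a description of the sequence and not a bound site.

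Srf (ENSMUSG00000015605, chr17:46548329-46556175, minus strand) was the steadiest of the 10 factors. SRF drives contractile and immediate early genes through CArG boxes, and Srf itself carries such boxes before its start. The control hearts had 44.1, 46.7 and 43.98 FPKM and the mutant hearts 44.6, 44.9 and 44.8 FPKM. The highest heart was 1.06 times the lowest. With a log2 fold change of 0.03 (SE 0.09, 95% interval -0.19 to 0.24, edgeR adjusted p = 0.990), the data leave room for a level in the mutants between 0.875 and 1.18 times that of the controls. The 250 bases before the start (RefSeq, GRCm38.p6, chr17:46556163-46556412, minus strand) are shown because SRF is known to act on its own gene. Capitals mark the CArG boxes, CCATATAAGG at -82 to -73 and CCATAAAAGG at -62 to -53.
Srf: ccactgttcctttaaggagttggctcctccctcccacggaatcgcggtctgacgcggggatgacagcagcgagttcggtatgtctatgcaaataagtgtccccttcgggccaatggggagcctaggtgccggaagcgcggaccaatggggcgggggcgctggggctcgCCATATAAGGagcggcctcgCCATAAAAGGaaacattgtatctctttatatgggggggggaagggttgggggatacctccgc
A CArG box, searched for on both strands, was found in 1.47% of the 32851 windows and in 1 of the 8 windows of the factors.

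Myocd (ENSMUSG00000020542, chr11:65176561-65269989, minus strand), the coactivator of SRF, had the widest range over the 6 hearts, with the highest at 2.08 times the lowest in FPKM. This range rested on control replicate 5, without which it was 1.16 times and that of Gata5 1.71 times. The levels of Myocd were 25.2, 22.03 and 12.1 FPKM in the controls and 22.2, 21.6 and 21.8 FPKM in the mutants. The SD of the 3 mutant hearts was 1.35% of their mean in FPKM and 3.42% in CPM, while control replicate 5 was below every other heart. Its log2 fold change was 0.18 (SE 0.23, 95% interval -0.35 to 0.71, edgeR adjusted p = 0.985) and -0.07 (SE 0.09) without that heart. For each unit of Srf, Myocd was present at 0.572, 0.472 and 0.275 in the controls and at 0.498, 0.482 and 0.486 in the mutants. The log2 ratio differed by 0.22 (exact permutation test, p = 0.7) and by -0.09 without control replicate 5.

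**Figure D3:**
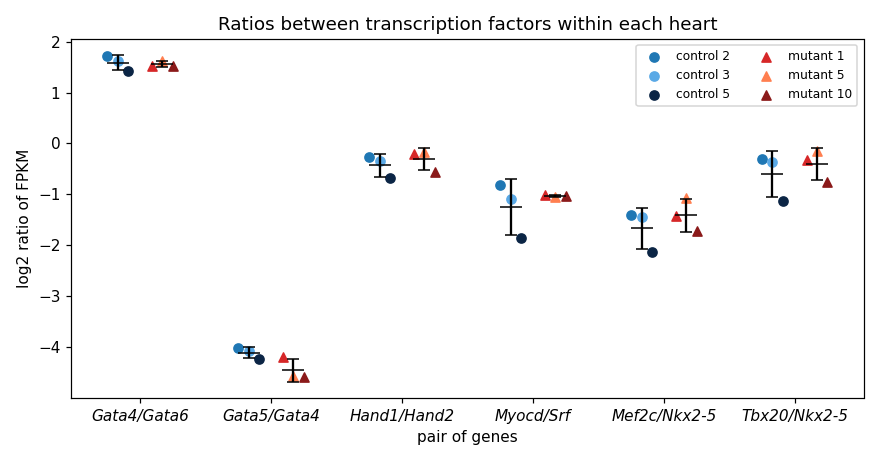
Log2 ratio of FPKM for 6 pairs of factors within each heart, with the group mean and SD (n = 3). The groups overlap for every pair; for Myocd/Srf the mutant hearts lie close together (mean -1.03, SD 0.025) within the wide range of the control hearts (mean -1.25, SD 0.55).

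The position of control replicate 5 differed between the factors. On the log2 CPM scale it stood below the mean of the other 5 hearts by a difference of -0.89 for Myocd, -0.63 for Tbx20, -0.60 for Mef2c, -0.57 for Hand1, -0.47 for Gata4 and -0.41 for Gata5. The difference was -0.29 for Gata6, -0.20 for Hand2, -0.03 for Srf and 0.11 for Nkx2-5. It was the lowest of the 6 hearts for 7 of the 10 factors, beside 31.1% of all genes tested. Its summed cardiomyocyte markers stood at -0.54 and its summed epicardial, endothelial and mesenchymal markers at -0.69, -0.58 and -0.72 on the same scale, and its smooth muscle markers at -0.10. What part these had in the levels of the factors was not tested.

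**Figure D4:**
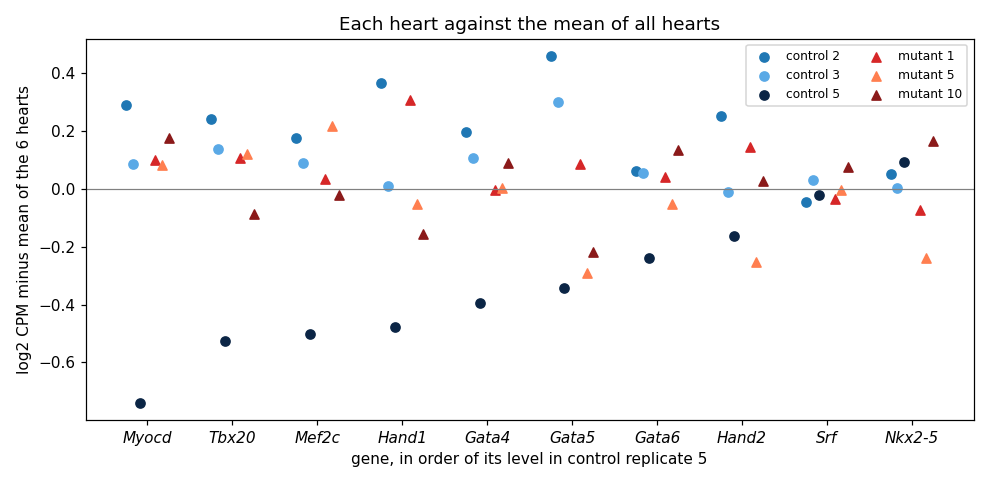
Log2 CPM of each factor in each heart minus its mean over the 6 hearts, with genes ordered by their level in control replicate 5 (darkest circles). That heart is lowest for 7 of the 10 factors and lies close to or above 0 for Srf and Nkx2-5.

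Because the cardiomyocyte markers differed between hearts, each factor was also set against the summed CPM of the 7 markers Actn2, Tnnt2, Myh6, Myh7, Ttn, Tnni3 and Ryr2 in the same heart. The groups overlapped for all 10 factors on this measure. Gata5 again had the largest difference at -0.41 on the log2 scale, followed by Nkx2-5 at -0.23 and Hand2 at -0.19. Without control replicate 5 the difference was -0.46 for Gata5, while it came down to -0.02 for Nkx2-5 and -0.09 for Hand2. Gata4 differed by -0.07, since its ratio to these muscle genes lay between 0.0228 and 0.0239 in the controls and between 0.0209 and 0.0237 in the mutants. The smallest exact permutation p was 0.2, for Gata4 and Gata5, and 0.8 after adjustment over the 10 factors. With the 34 cardiac muscle targets as the reference instead, the exact permutation p was 0.1 for Nkx2-5 (difference -0.21), the smallest that 3 hearts against 3 can give, and 1 for Gata4. Myocd (0.11) and Mef2c (0.02) were the factors with a positive difference.

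The relatives of these factors were present at very different levels. Mef2a (mean of the controls 75.0 FPKM) and Mef2d (68.5 FPKM), further MEF2 genes, were on average above Mef2c in the control hearts. Tbx5 (39.3 FPKM), the T-box gene of atria and left ventricle, and Tbx18 (24.6 FPKM), a marker of epicardium and sinus horns, were below Tbx20. Gata2 reached 9.72 FPKM, Gata3 3.43 FPKM and Gata1, a gene of blood cells, 3.63 FPKM. The myocardin relatives Mkl1 and Mkl2 had 11.3 and 7.70 FPKM. Mef2b had no count in any heart, and Nkx2-3 at most 3 and Nkx2-6 at most 25 counts, so these were left out of the main edgeR fit.

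Of the 12 relatives tested, 4 had a positive and 8 a negative log2 fold change (median -0.10), none had an edgeR adjusted p under 0.05 and 2 had an unadjusted p under 0.05, beside 5.73% of all genes. The median was -0.18 without control replicate 5, -0.04 without control replicate 3 and 0.03 without control replicate 2. Both genes with such a p were T-box genes that repress the chamber programme in the atrioventricular canal and conduction tissue, and both were lower in the mutants. Tbx2 had 26.6, 37.6 and 40.0 CPM in the controls and 25.05, 23.6 and 17.6 CPM in the mutants, with every mutant heart below every control. Its log2 fold change was -0.65 (SE 0.19, edgeR adjusted p = 0.638). Tbx3 had 18.3, 22.1 and 16.4 CPM in the controls and 15.3, 12.4 and 11.7 CPM in the mutants, again without overlap, with a log2 fold change of -0.53 (SE 0.16, edgeR adjusted p = 0.646). Under DESeq2 without control replicate 5 Tbx3 passed (log2 fold change -0.62, adjusted p = 0.0103). Mef2a was separated in the other direction, at 181 to 214 CPM in the controls and 225 to 258 CPM in the mutants (log2 fold change 0.25, SE 0.11, edgeR adjusted p = 0.895), and the remaining named relatives, Mef2d at 0.16 and Gata3 at -0.27, overlapped. With 1 heart left out at a time Mef2d ranged from 0.03 (without control replicate 5) to 0.28 and Gata3 from -0.37 to -0.15. In all, 3 of the 12 did not overlap, beside 11.2% of all genes.

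Among 22 tested partners and regulators of the factors, 10 had a positive and 12 a negative log2 fold change (median -0.02), with no edgeR adjusted p under 0.05 and 3 unadjusted p-values under 0.05, beside 5.73% of all genes. Isl1, the marker of second heart field progenitors and sinus node, had 4.85, 5.77 and 6.84 CPM in the controls and 4.19, 3.97 and 2.88 CPM in the mutants, without overlap (log2 fold change -0.66, SE 0.21, edgeR adjusted p = 0.696). Hey1, a Notch-responsive repressor of the atria, had a log2 fold change of -0.45 (SE 0.16, edgeR adjusted p = 0.765) with overlapping groups. Hdac9, a class II histone deacetylase that binds MEF2, went the other way, at 35.8 to 42.3 CPM in the controls and 45.2 to 51.7 CPM in the mutants (log2 fold change 0.32, SE 0.11, edgeR adjusted p = 0.746). Smyd1 (0.17) and Elk4 (0.21), a muscle methyltransferase and an SRF partner of the ETS family, completed the 5 genes with the smallest p. In all, 5 of the 22 did not overlap, beside 11.2% of all genes, and Foxh1 was left out of the main edgeR fit for low counts.

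Muscle genes known as targets of these factors mostly had positive log2 fold changes, but none passed the test in edgeR. Of 34, 30 were positive and 4 negative (49.8% positive among all genes), with a median of 0.14 beside 0.00 among all genes. Of the 34, 7 are also the cardiomyocyte markers above. The count of positive values depended on control replicate 5: without it 21 of the 34 were positive (50.7% among all genes), with a median of 0.12. In edgeR without that heart, 9 of the 34 had an unadjusted p under 0.05, beside 12.2% of all genes, and 8 of these were higher in the mutants. The groups then did not overlap for 16, of which 2 were lower in the mutants, beside 30.2% of all genes. With all hearts an unadjusted p under 0.05 was found for 4 of the 34, beside 5.73% of all genes. Of the 34, 6 did not overlap with all hearts, all with the mutants higher, beside 11.2%.

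Gja1, which encodes connexin 43, the gap junction protein of working ventricular muscle, had 425, 439 and 365 CPM in the controls and 585, 709 and 670 CPM in the mutants. Every mutant heart was above every control. Its log2 fold change was 0.68 (SE 0.13, 95% interval 0.38 to 0.97), with an edgeR adjusted p of 0.273 and a DESeq2 adjusted p of 0.000679. With all hearts it was the only gene that DESeq2 called among these factors, relatives, partners and targets. Pln, the inhibitor of the calcium pump of the sarcoplasmic reticulum, had a log2 fold change of 0.42 (SE 0.15, edgeR adjusted p = 0.765), and Bmp10, a growth factor of trabecular muscle, one of 0.40 (SE 0.17, edgeR adjusted p = 0.847). Myl7, the atrial myosin light chain, was the one with a negative value among the 4, at 1432, 1135 and 1742 CPM in the controls and 1092, 799 and 1192 CPM in the mutants (log2 fold change -0.48, SE 0.20, edgeR adjusted p = 0.860). Gja5, connexin 40 of atria and trabeculae, had a log2 fold change of 0.29 (SE 0.14, 95% interval -0.04 to 0.62, edgeR adjusted p = 0.917). Its groups did not overlap.

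Of 16 SRF targets of smooth muscle, cytoskeleton and growth response, 13 had a positive and 3 a negative log2 fold change, with a median of 0.14 that came to 0.03 without control replicate 5 and to 0.23 without mutant replicate 10. None had an edgeR adjusted p under 0.05, 2 had an unadjusted p under 0.05 (5.73% of all genes) and 3 did not overlap (11.2%). Both of the 2 are immediate early genes. Egr1 had 11.6, 14.4 and 11.6 CPM in the controls and 22.5, 17.95 and 16.8 CPM in the mutants (log2 fold change 0.61, SE 0.15, edgeR adjusted p = 0.488). Fos had 3.73, 4.05 and 3.25 CPM in the controls and 6.46, 4.41 and 8.43 CPM in the mutants (log2 fold change 0.80, SE 0.25, edgeR adjusted p = 0.667). For both genes every mutant heart was above every control, while Srf itself had a log2 fold change of 0.03. Cyr61 (0.31) and Ctgf (0.24), secreted growth response proteins, and Smtn (-0.14), a smooth muscle gene, were the other 3 with the smallest p.

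**Figure D5:**
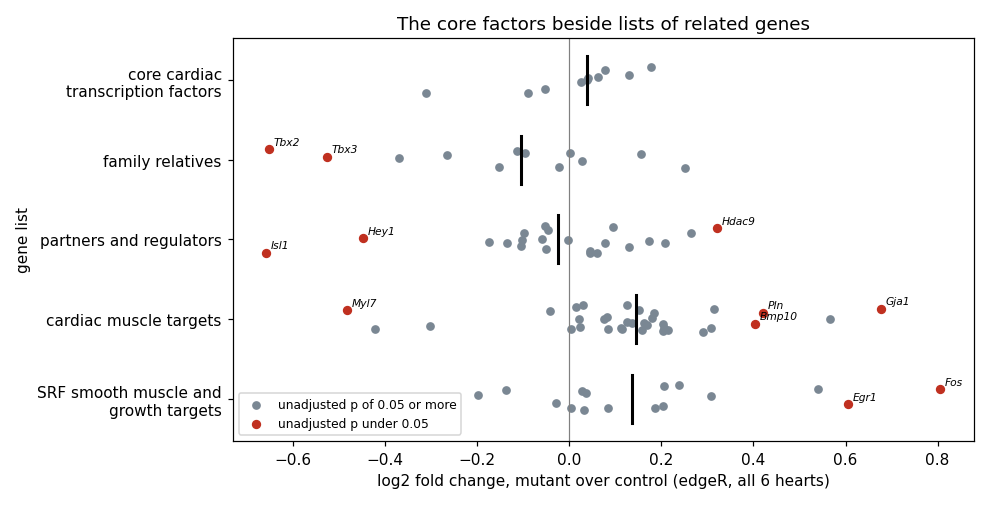
Log2 fold change, mutant over control, of every tested gene in 5 lists (edgeR, all 6 hearts), with the list's median as a black bar; red points had an unadjusted p under 0.05 and are named, and height within a row has no meaning. The factors lie between -0.31 and 0.18 with a median of 0.04, while red points appear in the other 4 lists.

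Pairs of factors were correlated across the hearts to different degrees. Over the 45 pairs, Pearson's r of log2 CPM had a median of 0.58 across the 6 hearts, and 7 pairs were above 0.9, the highest being Gata4 with Myocd (0.98). Nkx2-5 with Mef2c was the lowest at -0.51. Without control replicate 5 the median was 0.30 and none of these 7 pairs stayed above 0.9. The 1 pair above it was then Gata6 with Nkx2-5 (0.98), and the lowest was Hand1 with Srf (-0.90). These values share libraries and the scaling of each heart, and with 6 points they are a description. The same holds for the genes named next, which are the highest of 17473 genes tested. They were not sought again without control replicate 5. The genes most like each factor by the same measure, over all genes tested and the 6 hearts, were Usp11 and Prkcsh for Gata4, Scrib and Src for Gata5, Asb1 and Csf2rb for Gata6, Phf23 and Ahsa1 for Nkx2-5, Arid1b for Mef2c, Ice1 and Lrguk for Hand1, Dnajc17 and Nipal4 for Hand2, Nucks1 and Cep164 for Tbx20, Dusp14 and Ccpg1os for Srf, and Plec and Plekhh1 for Myocd, with r of 0.98 or more.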

How the data were processed

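RNA of 6 whole E13.5 hearts, 3 mutant and 3 control, was sequenced by the authors with a TruSeq kit and paired-end reads. Per the study's methods, reads were trimmed and aligned to mm10 with STAR, and the authors then counted uniquely mapped reads on GENCODE M19 genes with featureCounts, so the deposited counts are unnormalized. The processing notes of the labels name HTSeq and DESeq2 instead, and the strand setting is not given in the sources used here. The authors also deposited FPKM values, which are the counts scaled to 1 length for each gene and to library depth. A table of the authors' group means was not used here, and 0 columns of values were left unmapped to a heart.

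Groups follow the labels. Counts were compared with edgeR 4.0.16 in R 4.3.3 (TMM, filterByExpr at its minimum count 10 and total 15, quasi-likelihood test, two-sided, no covariates, Benjamini-Hochberg adjustment over 17473 genes, threshold 0.05). The common biological coefficient of variation was 0.209. CPM uses TMM-scaled totals, and 95% intervals come from the moderated test of the same fit. Ratios were compared by exact permutation tests over the hearts, adjusted over the 6 ratios or the 10 factors. The script was tested on simulated data. Nothing in the labels or methods beyond 1 heart per library says how the embryos were related, so p-values measure the spread between these hearts. The 95% intervals include that spread. Counting error, at 44244665 or more counts per heart, was not estimated separately. It need not be small beside the narrowest spreads, such as that of Srf in the mutants (SD 0.414% of the mean in FPKM, 4.02% in CPM).

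Alternatives were DESeq2 1.42.0, limma 3.58.1 (voom, and trend on log2 of the authors' deposited FPKM plus 1 or 0.1), RLE and upper quartile factors, no filter, robust dispersion, removal of a loess trend of the counts on gene length within every heart (span 0.5) and each heart left out. DESeq2 and the length correction without control replicate 5 were added after seeing the data.

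The members and the lists were chosen with earlier results of these data known. Named from each list were the genes with an adjusted p under 0.05 and up to 5 with the smallest p, and for each factor the 2 genes with the highest Pearson r, of which 1 is not reported here. Any further gene in the text was picked with its values known. Positions are from GENCODE M21 (GRCm38) and promoter sequences from RefSeq (GRCm38.p6). Motifs were searched for on both strands.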

Additional observations from a re-analysis of the deposited data

How the results depend on the processing

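None of the 10 factors had an adjusted p under 0.05 in edgeR, DESeq2, voom or either trend fit with all hearts, nor in edgeR with any 1 heart left out. The one exception among all settings run was DESeq2 without control replicate 5, in which Gata5 passed at -0.52. Over all factors and alternatives, 144 values kept their direction and side of the threshold, 25 turned and 1 gained a call. Leaving out 1 heart at a time, the log2 fold change ranged from -0.12 to 0.15 for Gata4, -0.51 to -0.15 for Gata5, -0.016 to 0.13 for Gata6, -0.20 to -0.0084 for Nkx2-5, -0.052 to 0.26 for Mef2c, -0.15 to 0.26 for Hand1, -0.14 to 0.071 for Hand2, -0.14 to 0.21 for Tbx20, -0.0055 to 0.050 for Srf and -0.070 to 0.39 for Myocd. Except for Nkx2-5 and Srf, the lower end is the value without control replicate 5. Under DESeq2 without that heart the values were -0.13 for Gata4, -0.020 for Gata6, -0.056 for Mef2c, -0.15 for Hand1, -0.14 for Tbx20 and -0.074 for Myocd. Under the length correction without it they were -0.13 for Gata4, -0.052 for Mef2c, -0.18 for Hand1, -0.11 for Tbx20 and -0.054 for Myocd. Srf turned to -0.0045 and -0.0046 in the trend fits (FPKM plus 1 and plus 0.1), to -0.0041 with upper quartile factors and to -0.051 with the length correction.

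With all hearts, edgeR called 0 of 17473 genes and DESeq2 132 of 26776 (0.493%). In edgeR, 34 of 26831 were called without the filter and 6 of 17473 with the length correction. Without control replicate 5, edgeR called 44 of 17814 (0 to 44 genes over the hearts left out). DESeq2 without it called 447 of 26409 (1.69%), and the length correction without it 43 of 17814. With all hearts DESeq2 called 1 of the 34 cardiac muscle targets, Gja1, beside 0.493% of the genes it tested. Without control replicate 5 DESeq2 called 1 of the 10 factors (Gata5) and 1 of the 12 relatives tested in edgeR (Tbx3). It also called 6 of the 34 cardiac muscle targets (Gja1, Pln, Myl2, Nppb and Smpx higher, Myh6 lower). Of the 16 SRF targets it called 2 (Ctgf higher, Acta1 lower). These counts stand beside 1.69% of the genes it tested. The median of the SRF targets was 0.068 in the trend fit on FPKM plus 1, 0.027 to 0.23 with 1 heart left out, 0.024 in DESeq2 and 0.017 with the length correction, both without control replicate 5. The median of the relatives was -0.18 to 0.028 over the hearts left out. The median of the partners was 0.052 without control replicate 2, -0.10 to 0.052 over the hearts left out, and -0.10 in DESeq2 without control replicate 5.

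With 1 heart left out, the log2 ratio differed by -0.10 to 0.041 for Gata4/Gata6, -0.0062 to 0.24 for Hand1/Hand2, -0.088 to 0.44 for Myocd/Srf and -0.065 to 0.37 for Tbx20/Nkx2-5. Relative to cardiomyocyte genes it differed by -0.14 to 0.041 for Gata6, -0.015 to 0.098 for Mef2c, -0.26 to 0.055 for Hand1, -0.13 to 0.056 for Tbx20, -0.26 to 0.080 for Srf and -0.0082 to 0.18 for Myocd. The ratios of Gata5 to Gata4 and of Mef2c to Nkx2-5 kept their direction in all settings run (down to 0.022 for the latter without control replicate 5), as did Gata4, Gata5, Nkx2-5 and Hand2 relative to cardiomyocyte genes. The causes of these turns were not tested. No paired analysis was possible because neither the labels nor the methods link a mutant heart to a control heart. With 3 hearts per group, the width of the intervals limits what could be detected.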
